A study of Homo sapiens with 4 samples.

Results

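The expression of 10 genes whose promoters are known from other work to be methylated in colorectal cancer, *GATA4*, *GATA5*, *HIC1*, *HLTF*, *CHFR*, *TFPI2*, *VIM*, *NDRG4*, *BMP3* and *SDC2*, was analysed in HML58-3 cells. The members were chosen as a list of names, with earlier results of these data known. Every gene probe whose RefSeq transcript belongs to one of them was used. All 10 had a probe, which made 14 probes of 58201, and 10 genes of 25006 that were named on the array. HML58-3 is a derivative line of the colon cancer line HCT116 that carries a luciferase reporter under a methylated promoter of *UCHL1*, and all 4 groups are this line. Cells were seeded on day 0 and given mock treatment, or a drug at 1 μM on day 1, and total RNA was taken on day 5. The drugs were decitabine (DAC), OR-2003 and OR-2100, each dissolved in DMSO, and the labels do not say whether the mock cells received DMSO. The study calls the cells of this comparison non-treated in a figure legend and mock-treated in a table. OR-2003 and OR-2100 are prodrugs that release DAC. Each condition was measured on 1 one-colour expression microarray, so that differences have no replicate check and no p-value, and the 3 comparisons with mock share 1 array. Values for the drugs are given in the order DAC, OR-2003 and OR-2100 throughout.

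Methylation of CpG sites in a promoter is kept through cell division by DNMT1, and promoters with dense methylation are usually silent. DAC is a cytosine analog that enters DNA during replication and traps DNMT1 there, so that methylation is lost as cells divide. The 10 genes have different roles. *GATA4* and *GATA5* are zinc finger transcription factors of gut and heart development, *HIC1* is a transcriptional repressor and a target of p53, *HLTF* is a helicase-like protein that remodels stalled replication forks, and *CHFR* is a ubiquitin ligase that delays entry into mitosis under stress. *TFPI2* is a secreted Kunitz-type protease inhibitor, *VIM* is the intermediate filament of mesenchymal cells, *NDRG4* belongs to the N-myc downstream-regulated family, *BMP3* is an atypical BMP that opposes other BMPs, and *SDC2* is a cell surface heparan sulfate proteoglycan. Methylated DNA of several of them, among them *VIM*, *NDRG4*, *BMP3*, *SDC2* and *TFPI2*, has been used as a marker in stool or blood. These arrays measured RNA only, so that whether the genes are methylated in HML58-3 cells was not tested.

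A level is the log2 intensity of a probe after each array was shifted so that its gene probes have a 75th percentile of 0, and the methods of the study take -1 or more as positive expression. Induced genes were positive with the drug and 2-fold or more above their mock level. Reduced genes were positive on the mock array and 2-fold or more below it with the drug. Levels of different probes cannot be set against each other as amounts. A probe that did not stand well above background on the mock array has only a minimum fold. This was set against its own mock level or -4.29, whichever was higher, -4.29 being the dimmest level that did stand well above background there. Where the own mock level was the higher, as for *TFPI2* and *CHFR*, the fold is the plain ratio to a dim spot and not a strict minimum. Minimum folds rest on the software's own background correction. The scanner software gave an error of 10.0% for the spot of a bright gene such as *VIM* with DAC, and of 101% for that of *GATA5* on the mock array, which lay at background. All arrays lay on 1 slide and had between 31601 and 33282 probes well above background, no gene spot was saturated, and no member spot was marked as an outlier.

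Of the 10 genes, 4 were induced by each drug, and *GATA5*, *CHFR*, *TFPI2* and *VIM* were the ones induced each time. Among all 25006 named genes, 5.77%, 5.89% and 5.81% were induced by the single drugs, and 5.27% by all 3. As the members were chosen with earlier results of these data known, these shares are set beside the count as a description only. None of the 10 was reduced by any drug, beside 5.96%, 6.05% and 6.82% of all genes, and 5.21% for all 3. A reduced call needs a positive mock level, which *VIM*, *HLTF* and *NDRG4* alone had, so that the other 7 could not be called reduced. The induced count fell to 2, *TFPI2* and *VIM*, with the 75th percentile taken over bright probes or with a level threshold of 0. Of all genes, 4.04%, 4.59% and 4.15% were induced under the first setting, and 4.27%, 4.34% and 4.20% under the second. In RNA from whole cultures, fewer cells that express a gene and less RNA per cell cannot be told apart. On the mock array, with the probe of each gene that had the highest mean signal, *HLTF*, *NDRG4* and *VIM* were well above background and positive, and the other 7 were not well above background. A further probe of *GATA4* was above background there, at a level of -4.08. Of these 7, the probes of *GATA4*, *GATA5*, *HIC1*, *CHFR* and *TFPI2* were well above background with all 3 drugs, while those of *BMP3* and *SDC2* were so with none. Of all 8041 genes that lacked such a signal on the mock array, 19.5% had it with all 3 drugs, a count made after the values had been seen. The median log2 difference of the 10 genes was 3.12, 3.25 and 3.42, beside -0.12, -0.093 and -0.23 for all genes. With values below background raised to the lower bound, it was 1.92, 2.07 and 2.10. With normexp background correction and an offset of 50, which adds a constant to every spot, it was 0.44, 0.52 and 0.49.

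**Figure D1:**
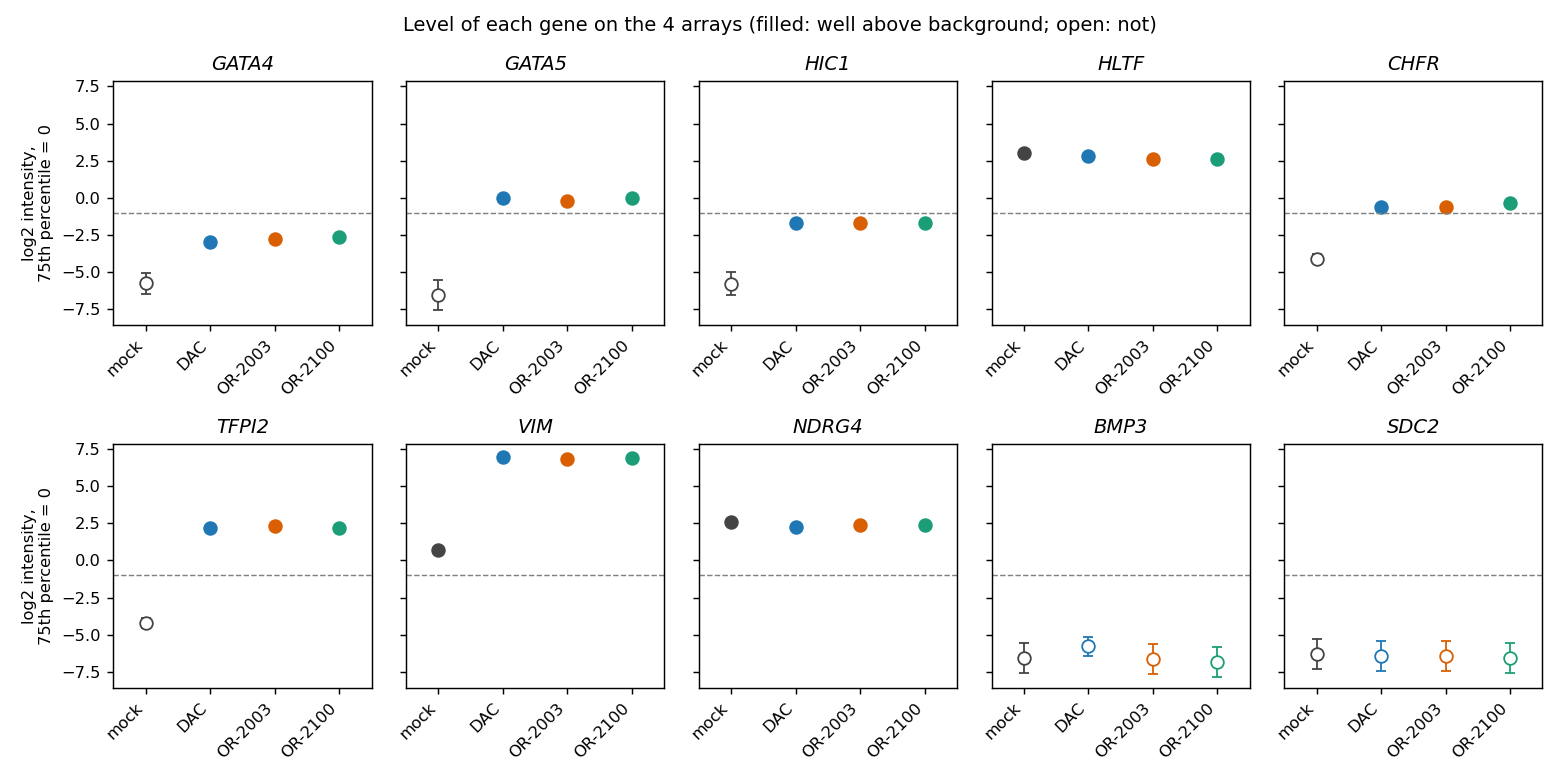
Level of each of the 10 genes (log2 intensity, 75th percentile of the array = 0) on the mock, DAC, OR-2003 and OR-2100 arrays, 1 array each, with the probe of the gene that had the highest mean signal. Filled points are well above background and open points are not, bars are the spot error of the scanner software, and the dashed line is the level of positive expression at -1. The 3 drug arrays lie close together in every panel that is above background, and the mock array lies far below them for *GATA4*, *GATA5*, *HIC1*, *CHFR*, *TFPI2* and *VIM*.

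The CpG content of the promoters is shown because it is the sequence on which DNA methylation acts. Entries in the RefSeq promoter sequences, build GRCh38.p14, were found for 5 of the 10 genes, *HLTF*, *CHFR*, *TFPI2*, *VIM* and *NDRG4*. The letters CG, which read the same on both strands, were searched in the 250 bases before each start. At least 1 was held by 93.9% of all 35116 entries, and the median was 11. The sequences of 3 genes induced by the drugs and of *HLTF*, which was positive on all arrays, are given 5′ to 3′ on the strand of the gene, with each CG in capitals.
TFPI2, chr7:93890754-93891003, minus strand: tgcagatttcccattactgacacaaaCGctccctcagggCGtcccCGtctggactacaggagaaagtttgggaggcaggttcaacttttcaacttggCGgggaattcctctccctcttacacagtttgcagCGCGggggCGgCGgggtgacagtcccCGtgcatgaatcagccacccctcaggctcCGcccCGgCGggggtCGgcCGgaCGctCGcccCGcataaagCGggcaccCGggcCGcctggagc
CHFR, chr12:132887606-132887855, minus strand: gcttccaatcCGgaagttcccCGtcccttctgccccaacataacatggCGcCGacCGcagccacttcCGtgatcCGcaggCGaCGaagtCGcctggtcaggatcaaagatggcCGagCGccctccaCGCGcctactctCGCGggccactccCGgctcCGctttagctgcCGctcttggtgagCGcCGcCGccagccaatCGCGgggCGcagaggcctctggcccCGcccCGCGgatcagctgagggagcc
VIM, chr10:17227991-17228240, plus strand: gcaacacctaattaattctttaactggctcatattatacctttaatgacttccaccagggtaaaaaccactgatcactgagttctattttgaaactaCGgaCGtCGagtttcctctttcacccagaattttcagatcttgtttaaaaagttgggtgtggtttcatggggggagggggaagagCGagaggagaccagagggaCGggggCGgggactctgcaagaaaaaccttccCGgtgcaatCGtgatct
HLTF, chr3:149086534-149086783, minus strand: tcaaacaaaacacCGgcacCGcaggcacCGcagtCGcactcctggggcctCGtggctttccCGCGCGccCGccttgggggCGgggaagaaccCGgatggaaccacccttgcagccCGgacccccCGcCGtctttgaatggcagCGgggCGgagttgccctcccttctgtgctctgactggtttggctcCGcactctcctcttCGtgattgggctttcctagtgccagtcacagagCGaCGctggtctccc
*CHFR* held 28 CG, a number reached by 15.9% of all entries. *TFPI2* and *HLTF* each held 20, a number reached by 32.4% of all entries. *VIM* held 8 in this window, below the median. *NDRG4* has 4 entries, with 3, 40, 29 and 7 CG, and the arrays do not tell which start was used. Whether the number of CG bears on induction was not tested.

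*VIM* was the only induced member with a measured mock level, and *TFPI2* had the largest minimum fold of the others. The *VIM* probe (A_23_P161190) had a level of 0.71 on the mock array and of 6.98, 6.84 and 6.92 with the drugs. It was positive on all 4 arrays, and every drug array was above the mock array. The differences were 76.8, 69.8 and 74.0-fold, with log2 values of 6.26, 6.12 and 6.21 beside an error of 0.20 from the spots. Among 27921 probes that stood well above background on every array, the *VIM* difference ranked 34th, 35th and 37th from the top, and it varied little with the processing, from 5.82 to 6.49 over all settings and drugs. The *TFPI2* probe (A_23_P393620) had a level of -4.20 on the mock array, where it was not well above background, and of 2.21, 2.31 and 2.20 with the drugs. All drug arrays were positive and lay above the mock array. The rise was 85.2, 91.2 and 84.8-fold against this dim mock spot, which had an error of 25.8%. With normexp, the log2 differences of *TFPI2* fell from 6.41, 6.51 and 6.41 to 3.39, 3.54 and 3.36.

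**Figure D2:**
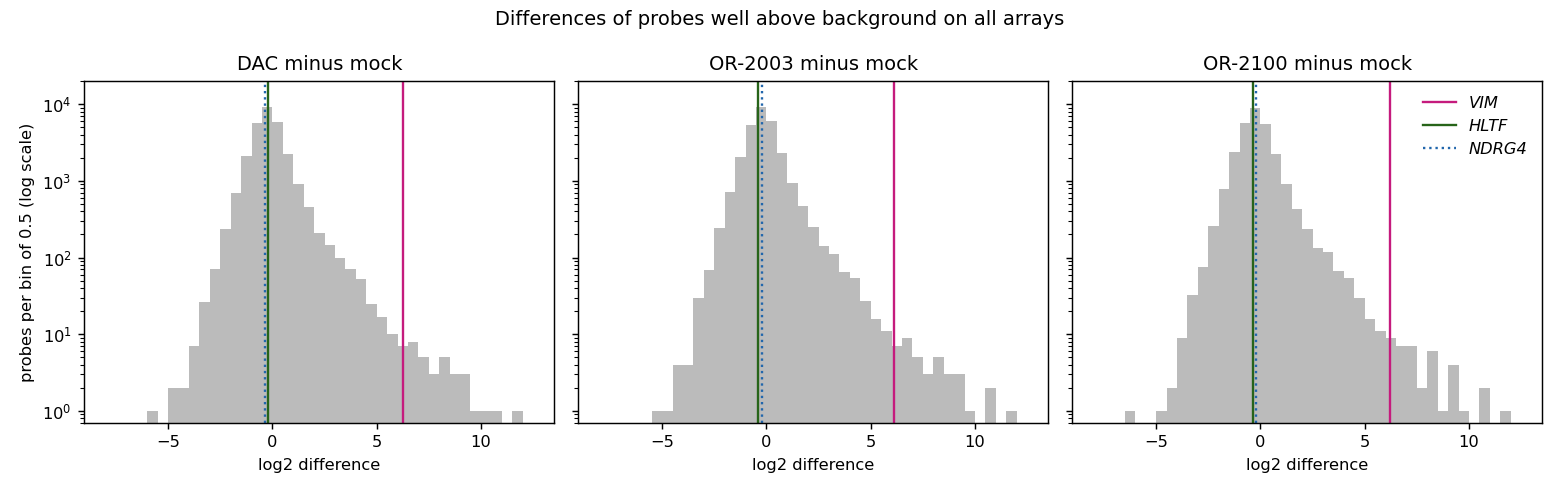
Number of probes (log scale) in bins of 0.5 of the log2 difference from the mock array, for the 27921 probes that stood well above background on every array, with 1 panel for each drug. Lines mark the 3 genes that were measured on all arrays. *VIM* lies in the far upper tail at 6.26, 6.12 and 6.21, and *HLTF* and *NDRG4* lie at the peak.

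Cell type markers were read beside *VIM*, which marks mesenchymal cells. Of 10 markers of colon epithelium, 7 were well above background with mock and 9 with each drug, and the keratins *KRT8*, *KRT18* and *KRT19* were positive on all arrays. The mean level of this list was 2.12 on the mock array and 2.64, 2.64 and 2.60 with the drugs. This mean includes *KRT20* and *VIL1*, which were below background on the mock array and well above it with each drug, and the median log2 difference of the list was 0.36, 0.23 and 0.26. *EPCAM*, an adhesion protein of epithelium, was 2.81, 2.88 and 2.74-fold lower with the drugs, and *CDH1*, the epithelial cadherin, was 2.13, 2.27 and 2.37-fold lower. *CDX1* and *CDX2* were positive on all arrays and not called, and *LGR5* was below background on all arrays. Of 6 fibroblast markers, 2 were well above background with mock and 4 with each drug, none was induced, and *COL3A1* and *LUM* were below background throughout. *COL1A1* was positive on all arrays, with a level of 0.99 on the mock array and of 1.82, 1.76 and 1.89 with the drugs. *PDGFRB* was measured on all arrays, 1.55, 1.22 and 2.12-fold lower with the drugs, and not positive. *DCN*, a matrix proteoglycan, was at least 6.63, 7.26 and 6.60-fold higher and *COL1A2*, a chain of collagen I, at least 1.56, 2.01 and 1.79-fold, both under the level of positive expression. The mean level of the fibroblast list was -4.32 on the mock array and -3.27, -3.14 and -3.13 with the drugs, with 4 values below background on the mock array. The median log2 difference was 0.37, 0.34 and 1.00. It rests in part on *COL3A1* with DAC and OR-2003 and on *LUM* with OR-2100, which were below background, so that its differences between drugs carry no weight. For 4 endothelial markers the mean level was -3.98 on the mock array and -2.24, -2.12 and -2.37 with the drugs, and *VWF* was induced by all 3. *PECAM1*, below background on the mock array, was at least 8.40, 8.90 and 9.05-fold higher and not positive, while *KDR* was below background throughout. *CDH5* was measured on all arrays and not positive, with log2 differences of -0.19, 0.029 and -0.73. The part of other cell types or states in the *VIM* value was not tested.

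Of the genes for the cell cycle and for replication, *CHFR* was induced and *HLTF* was not. The *CHFR* probe (A_23_P344037) had a level of -4.10 on the mock array, where it was not well above background, and of -0.63, -0.62 and -0.38 with the drugs. The drug arrays lay above the mock array and just above the level of positive expression. The rise was 11.1, 11.2 and 13.3-fold against this dim mock spot, which had an error of 23.7%. With normexp the log2 differences fell from 3.48, 3.48 and 3.73 to 1.11, 1.14 and 1.23. The *HLTF* probe (A_24_P277155) had a level of 3.00 on the mock array and of 2.78, 2.58 and 2.63 with the drugs. The drug arrays were slightly below the mock array. Its log2 differences of -0.22, -0.42 and -0.37, beside a spot error of 0.20, turned to 0.0026 with DAC when the 75th percentile was taken over probes well above background. Probes that stood above background on every array had median differences of -0.21, -0.19 and -0.23, and relative to them *HLTF* differed by -0.013, -0.23 and -0.14.

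Of the transcription factors, *GATA5* became positive with every drug, and *HIC1* and *GATA4* were well above background with the drugs and not positive. The *GATA5* probe (A_23_P371835) had a level of -6.55 on the mock array, at background, and of -0.025, -0.21 and -0.039 with the drugs. The mock array lay far below the drug arrays, and the rise was at least 19.2, 16.9 and 19.0-fold. With normexp the log2 differences were 1.90, 1.78 and 1.97, below the bounds of 4.26, 4.08 and 4.25 that the scanner software's correction gave. The *HIC1* probe (A_23_P129856) had a level of -5.79 on the mock array and of -1.73, -1.68 and -1.72 with the drugs. All drug arrays were well above background, and all were under the level of positive expression, so that *HIC1* was not counted as induced. It was at least 5.87, 6.07 and 5.90-fold higher. By normexp it differed by 0.59, 0.66 and 0.62 on the log2 scale, under the 2-fold threshold.

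*GATA4* has 4 probes, and they disagreed. The probe with the highest mean signal (A_23_P384761) had a level of -5.77 on the mock array, not well above background, and of -3.00, -2.75 and -2.65 with the drugs, at least 2.44, 2.89 and 3.10-fold higher. A second probe (A_33_P3360363) was well above background on all arrays, with -4.08 on the mock array and -3.62, -3.22 and -3.68 with the drugs, and differed by 1.38, 1.81 and 1.32-fold. The third (A_33_P3406962), designed to another transcript of the gene, was well above background only with OR-2100, at a level of -4.07. The last (A_33_P3293456) was below background on all arrays. No *GATA4* probe reached the level of positive expression, and with the mean of its probes the log2 differences of *GATA4* were 0.67, 0.93 and 1.28 in place of 2.77, 3.01 and 3.11. With normexp they were 0.30, 0.38 and 0.37.

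**Figure D3:**
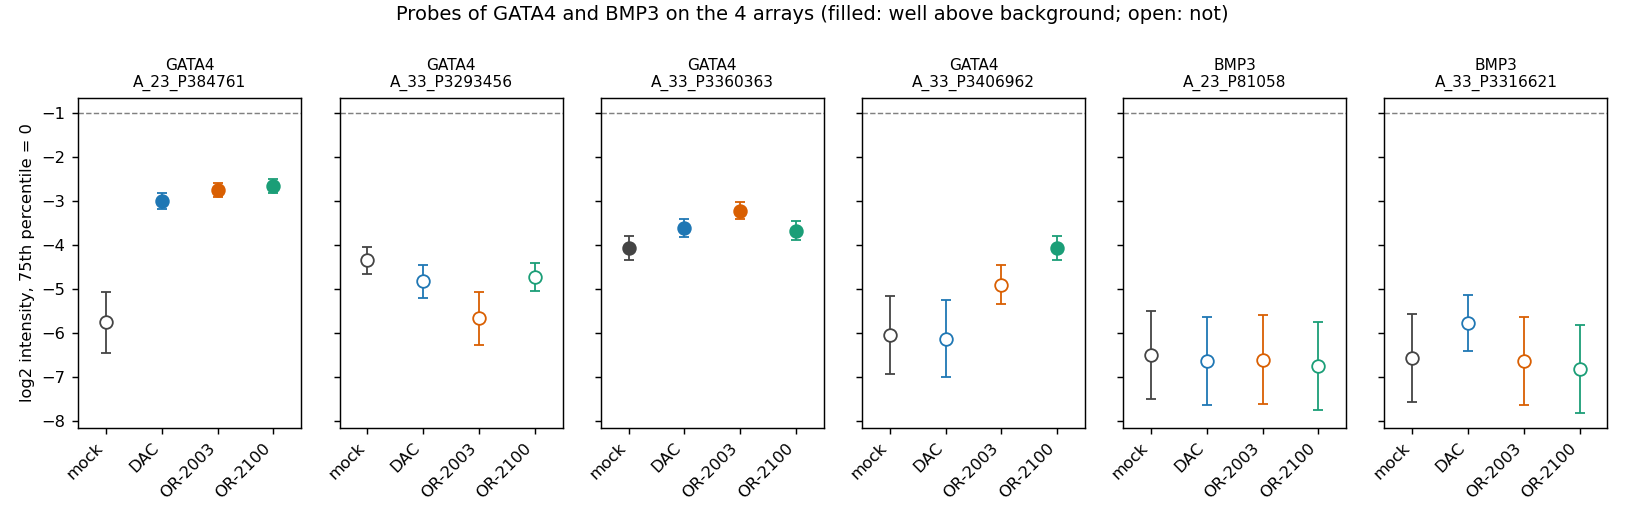
Level (log2 intensity, 75th percentile of the array = 0) of the 4 probes of *GATA4* and the 2 probes of *BMP3* on the mock, DAC, OR-2003 and OR-2100 arrays, with filled points well above background, open points not, bars for the spot error of the scanner software, and a dashed line at -1. All 6 probes stay under the level of positive expression, and 1 probe of *GATA4* lies above background on the 3 drug arrays and not on the mock array.

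*NDRG4*, *BMP3* and *SDC2* were not induced by any drug. The *NDRG4* probe (A_23_P140748) had a level of 2.59 on the mock array and of 2.23, 2.40 and 2.38 with the drugs. It was positive on all 4 arrays, with the drug arrays slightly lower. The log2 differences were -0.36, -0.19 and -0.21, and turned to 0.10 and 0.047 with OR-2003 and OR-2100 when the 75th percentile was taken over probes well above background. Both probes of *BMP3* and the probe of *SDC2* were not well above background on any array, as were 23.1% of all named genes by the probe used. The *SDC2* levels were between -6.56 and -6.31, and those of *BMP3* between -6.82 and -5.78. A difference in these genes was not detectable on these arrays.

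The drugs were compared at the same dose and time over 8 members well above background on all 3 drug arrays, in 3 pairs. None of the 8 differed 2-fold in any pair, beside 0.105%, 0.266% and 0.547% of probes above background on both arrays of the pair for OR-2003 and DAC, OR-2100 and DAC, and OR-2100 and OR-2003. The log2 difference of OR-2003 from DAC lay between -0.20 and 0.25, that of OR-2100 from DAC between -0.15 and 0.35, and that of OR-2100 from OR-2003 between -0.11 and 0.25. In each pair the absolute differences of 95% of all probes above background on the 3 drug arrays were under 0.45, 0.51 and 0.54, and no member exceeded them. *GATA4* with OR-2100 and DAC, at 0.35, was the widest. *CHFR* was 0.25 higher with OR-2100 than with either DAC or OR-2003, beside a spot error of 10.2% or less for each array. With 1 array for each drug these values have no interval, and they do not show that the drugs act alike.

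Relatives and partners of the 10 genes were read from 13 lists with 84 genes, all on the array. Of the 84, 14.3%, 13.1% and 14.3% were induced by the drugs, and 5.95%, 4.76% and 4.76% were reduced, beside the shares of all genes given above. As the lists were chosen with earlier results of these data known, these shares are a description only. None of the 6 genes for the GATA family and its cofactors was called, and *GATA6*, a factor of gut epithelium, had levels of 1.08 on the mock array and 1.75, 1.93 and 1.61 with the drugs. Of 8 BMP antagonists and inhibitors, 3 were induced by all 3 drugs. *NOG*, a secreted BMP antagonist, was 14.7, 14.7 and 14.6-fold above a mock spot that was not well above background. *BAMBI*, a decoy receptor, was 3.34, 3.40 and 2.99-fold higher, and the inhibitory *SMAD7* 2.03, 2.27 and 2.08-fold. Of 11 BMP ligands none was called with all 3 drugs, *BMP7* was induced by DAC alone and *BMP6* by OR-2100 alone, at 2.04 and 2.01-fold, as single calls near the threshold. Of 10 receptors and SMADs, the common mediator *SMAD4* was reduced by all 3 drugs, 2.43, 2.56 and 2.58-fold. Of 4 BMP targets, *ID1*, an inhibitor of basic helix-loop-helix factors, was reduced by all 3 drugs, 2.60, 2.33 and 2.68-fold. *ID4* went the other way, 3.70, 4.56 and 3.65-fold higher, and was not called because it stayed under the level of positive expression. *ID2* and *ID3* were not called with any drug. Among 9 cell surface proteoglycans, the other syndecans *SDC1* and *SDC4* were induced by all 3, *SDC1* 2.75, 2.86 and 2.72-fold and *SDC4* 2.05, 2.10 and 2.06-fold.

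*TFPI*, the paralog of *TFPI2* that inhibits the tissue factor pathway of coagulation, went the other way from *TFPI2*. It had a level of 1.95 on the mock array and of -1.23, -1.50 and -1.28 with the drugs, and was 9.07, 11.0 and 9.38-fold lower. *SPINT1* and *SPINT2*, the other Kunitz inhibitors of the list, were not called. Of 8 regulators and markers of the epithelial to mesenchymal transition, 3 were induced by all 3 drugs. *CDH2*, the neural cadherin, rose at least 15.1, 16.8 and 16.6-fold, *TWIST1* 2.98, 2.94 and 3.14-fold and *SNAI1* 2.25, 2.45 and 2.44-fold, both of them transcription factors that repress epithelial genes. *ZEB1* was 1.56, 1.75 and 1.53-fold higher, and *SNAI2* had log2 differences of -0.097, 0.47 and -0.22, and neither was called. *TWIST2* was at least 2.28, 2.39 and 2.62-fold higher and not positive. *ZEB2* was well above background with DAC alone, and *FN1* was below background on all arrays. Of 5 other intermediate filament genes, *NES*, the filament of neural progenitors, was 6.20, 6.18 and 6.69-fold higher and *DES*, the filament of muscle, 2.22, 2.18 and 2.19-fold. Among 7 partners and targets of *HIC1*, its paralog *HIC2* was 2.55, 2.67 and 2.58-fold higher. Among 5 partners of *HLTF*, the ubiquitin-conjugating cofactor *UBE2V2* was 2.53, 2.51 and 2.56-fold lower. *UBE2N*, the enzyme it works with, was 2.18, 1.54 and 1.72-fold lower, and was called with DAC alone, near the threshold. None of the 3 other NDRG genes and none of the 5 partners and targets of *CHFR* was called with any drug.

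**Figure D4:**
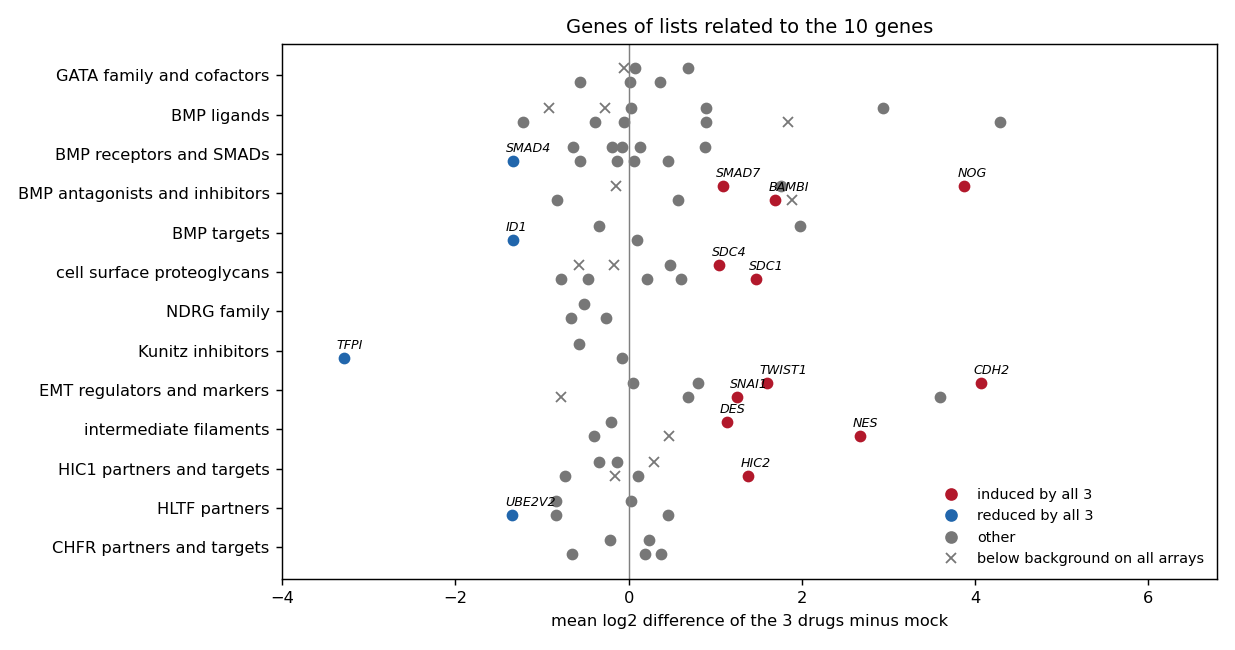
Mean log2 difference of the 3 drugs from the mock array for the 84 genes of the 13 related lists, 1 point for each gene and 1 row for each list, with named points for genes induced or reduced by all 3 drugs and crosses for genes below background on all arrays. Of the named genes, *CDH2* and *NOG* lie highest and *TFPI* lies lowest, and no gene of the GATA, BMP ligand, NDRG or *CHFR* lists is named.

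The genes whose 4 levels were most like those of an induced member were found by the root mean square distance over the 4 arrays, as a description with no shared role implied. The distance sets levels of different probes side by side, which are not amounts, and for *GATA5*, *CHFR* and *TFPI2* it includes a mock value below background, so that small differences between distances carry no order. For *GATA5* they were *FBN2*, *MEIKIN* and *SSX8P*, at 0.059, 0.12 and 0.13 on the log2 scale. For *CHFR* they were *SSTR2*, *ZG16B* and *DMBT1*, at 0.099, 0.12 and 0.12. For *TFPI2* they were *C11orf96*, *CABYR* and *MAGEA4-AS1*, at 0.11, 0.14 and 0.21. For *VIM* they were *DHRS2*, *TUBA3D* and *VCY*, at 0.78, 1.11 and 1.17.

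**Figure D5:**
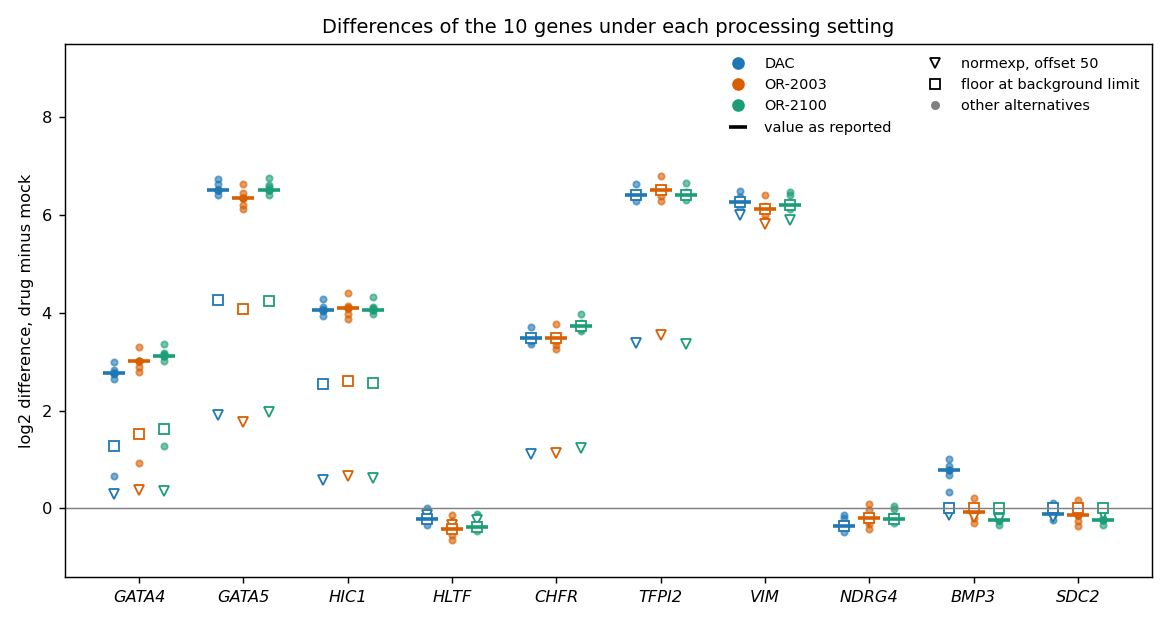
Log2 difference of each of the 10 genes from the mock array under the processing as reported (bars) and under the alternatives (points), with normexp as triangles and values raised to the background limit as squares, for DAC, OR-2003 and OR-2100. *VIM* stays between 5.82 and 6.49, while *GATA4*, *GATA5*, *HIC1*, *CHFR* and *TFPI2* are lower with normexp, and *HLTF*, *NDRG4* and *SDC2* stay between -0.64 and 0.17.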

How the data were processed

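Total RNA of HML58-3 cells was measured on Agilent 8x60K one-colour arrays, 1 for each of 4 conditions, grouped by the sample titles. For each spot, the authors deposited an intensity corrected for background with Feature Extraction 12.1.0.3, with its error and quality marks, and a series table of the same values, with no normalization between arrays. Here, control spots and spots marked as outliers were dropped, log2 values were averaged over repeat spots, and each array was shifted so that its gene probes had a 75th percentile of 0. Probes were named by transcript accession through a RefSeq table of GRCh38.p14, which named 34892 probes. The array files name another build, so no coordinates are given beyond those of the promoter entries. A gene is its probe with the highest mean signal. Genes named are the 10 members, all related genes called with all 3 drugs, marker genes, and the 3 genes nearest to each induced member. *GATA6*, *SPINT1*, *SPINT2*, *FN1*, *ZEB1*, *ZEB2*, *SNAI2*, *TWIST2*, *BMP2*, *BMP6*, *BMP7*, *BMP8A*, *GDF7*, *ID2*, *ID3*, *ID4* and *UBE2N* were named after their values had been seen. The members and lists were chosen with earlier results of these data known. A list of leukocyte markers is not reported here. Calling was tested on simulated data. Only probes positive on the mock array were raised there, so that calls of genes dim on the mock array were not covered. Normexp was run on the median spot intensity. Alternatives changed the background correction, the scaling, dim and marked spots, the choice of probe, the source of values and both thresholds. Python 3.11.15, pandas 2.3.3, numpy 2.4.6, R 4.3.3 and limma 3.58.1 were used. The number of arrays limits the precision, and no test was run between conditions.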

Additional observations from a re-analysis of the deposited data

How the results depend on the processing

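No paired analysis was possible because there was a single array per condition, which also left no replicate to drop. The number of members induced fell from 4 to 2, *TFPI2* and *VIM*, for each drug and for all 3 together, when the 75th percentile was taken over bright probes (well above background), which lowers all levels, and with a level threshold of 0. Under these 2 settings, 3.75% and 3.86% of all genes were induced by all 3 drugs. The number of members induced was 6 for each drug and for all 3 with no level threshold, where *GATA4* and *HIC1* were added. There, 14.1%, 14.8% and 13.5% of all genes were induced, and 11.8% by all 3. The number of members induced was 4 under the other 10 alternatives. With the processing as reported, the drug levels of *GATA5* and *CHFR* lay between -1 and 0, and those of *GATA4* and *HIC1* under -1. The number reduced was 0 under all 13. Of the alternatives, the series value table held the same values as the scanner files and tests nothing. The scaling by the percentile of bright probes moved the median of all genes by 0.23, 0.30 and 0.26 with the drugs, median scaling by -0.12, -0.22 and -0.088, quantile normalization by 0.083, 0.054 and 0.21, and scaling by 8 spike-in probes by -0.014, -0.13 and 0.059. Under the 10 alternatives that change levels, the median log2 difference of the members stayed above 0. It lay between 0.44 and 3.68 over the 10 genes, and was 3.76, 3.79 and 3.89 over 8 genes with dim probes left out. Dim signals limit the probe used for *GATA4*, and *GATA5*, *HIC1*, *CHFR* and *TFPI2*, on the mock array and *BMP3* and *SDC2* on all arrays, so that the latter have no value with dim probes left out.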
